A study of Homo sapiens with 6 samples.

Results

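Gamma-secretase (γ-secretase) is a protease embedded in cell membranes that cuts its substrates within the membrane. Its cut in Notch receptors releases the Notch intracellular domain, which enters the nucleus and activates target genes. The complex is built from a catalytic presenilin, the glycoprotein nicastrin at its outer face, the scaffold protein APH1 and the small subunit PEN-2, which is needed for the presenilin to mature. DAPT, the inhibitor used in the study, acts on the protein complex. Whether the RNA of its subunits changed in cells exposed to the inhibitor was examined here in 5 subunit genes of the 58884 genes in the count tables. They were chosen by symbol as subunits of the complex. *PSEN2* encodes presenilin 2, *NCSTN* nicastrin, *APH1A* and *APH1B* alternative forms of APH1, and *PSENEN* PEN-2. All 5 passed the filter on low counts. The RNA of any other subunit gene was not analysed here.

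The cells were HSC-4 (HSC4 in the labels), an established line from a human oral squamous cell carcinoma. Total RNA of the cells was used to make mRNA libraries, 3 from DAPT-treated cells (50 μM, 24 h) and 3 from controls. The paper states DMSO as the vehicle of the controls. The labels call them control, and the letters GM in their count columns are not explained there, so if these cultures received medium alone, an effect of the vehicle and that of DAPT cannot be told apart. Nothing in the labels says that the 3 libraries of a group came from separate cultures, and p-values then measure the spread between libraries, which may be technical. A single cell line was used, and in bulk RNA a change in the RNA per cell and a change in the share of cells that make it cannot be told apart.

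Total counts per library were between 12276313 and 16317672. The 8 squamous epithelial markers, among them *KRT5*, *TP63* and *DSG3*, were all detected, with *KRT14* low (at most 49 reads). CPM here are counts divided by the library total on the conventional scale, with TMM factors that correct for differences in composition. The summed level of these 8 markers was 5186 to 5361 CPM in the control libraries and 3339 to 3479 CPM with DAPT. The list did not move as a whole. *KRT5* (2701 to 1315 CPM), *KRT6A* (523 to 187 CPM), *KRT17* (377 to 205 CPM), *TP63* (378 to 252 CPM) and *KRT14* (3.17 to 0.443 CPM) went down. *CDH1* (512 to 617 CPM) and *EPCAM* (308 to 372 CPM), which mark epithelial cells more widely, went up. All of these had an adjusted p under 0.05 in edgeR, and *DSG3* did not (469 to 449 CPM, adjusted p = 0.316). The library control replicate 1 stood apart from the other 5. Its summed level of 7 fibroblast markers was 566 CPM, against 57.4 and 58.4 CPM in the other control libraries and 50.0 to 55.2 CPM with DAPT. *COL1A2*, a collagen gene of fibroblasts, had 3452 reads in control replicate 1 and between 3 and 28 reads in the other libraries. Of 5 endothelial markers, only *VWF* exceeded 3 reads in any library (at most 21), and of 6 blood cell markers only *CD14* (120 to 167 reads) and *LYZ* (at most 4) did. Results on the subunits are therefore given with and without control replicate 1. The part of the fibroblast RNA in them was not tested further.

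The treatment was visible in Notch target genes. *HES1*, a transcriptional repressor induced by Notch, was at 42.5, 50.3 and 48.2 CPM in the control libraries and at 27.9, 27.2 and 27.3 CPM with DAPT. *NRARP*, a feedback inhibitor of Notch, fell from 56.2 ± 6.255 to 20.7 ± 1.40 CPM (SD, n = 3 each). *HEY1*, a repressor of the same family as *HES1*, fell from 34.6 ± 1.77 to 8.75 ± 0.7955 CPM (SD, n = 3 each). All 5 tested genes of the list of 7 Notch targets were lower with DAPT by edgeR's quasi-likelihood test at an adjusted p under 0.05, with a median log2 fold change of -1.48. The same test called 18.0% of all tested genes lower.

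Among the subunits, only *NCSTN* passed the test. It rose by 20.5% with DAPT, while the other 4 subunit genes did not reach an adjusted p under 0.05 in the fit of all libraries. The 2 most abundant subunit RNAs had log2 fold changes of opposite sign, 0.27 for *NCSTN* and -0.15 for *APH1A*. Thus 1 of 5 members was higher and 0 were lower, where 17.2% and 18.0% of the 15001 tested genes were called higher (2574 genes) and lower (2707 genes). In either direction, 35.2% of all tested genes were called. At an unadjusted p under 0.05 in the same edgeR fit, *NCSTN* and *PSEN2* were higher and *APH1A* was lower, a threshold that 44.4% of all tested genes passed. Scaling by library size alone gave 3445 genes higher and 2156 lower among all genes (37.3% called, 23.0% higher), with 2 members called, *NCSTN* and *PSEN2*, both higher. Without the low-count filter 3 members were called, *NCSTN* higher and *APH1A* and *PSENEN* lower, where 17.7% of genes were called and 9.36% were lower. *NCSTN* was the only member called by DESeq2 (26.5% of its tested genes were called), the likelihood ratio test (33.7%), limma-voom (34.4%), RLE scaling (35.4%), upper quartile scaling (35.3%) and with 10 counts required in every library (37.1%). A replicate block on the library number called 2 members higher (*NCSTN* and *PSEN2*) and 2 lower (*APH1A* and *PSENEN*), where 35.3% of tested genes were called. The labels do not say whether same-numbered libraries were pairs. With a library left out, 2 members were called without control replicate 1 (background 37.1%) and without DAPT replicate 1, 2 or 3 (29.2%, 27.2% and 27.7%), and 1 without control replicate 2 or 3 (27.9% and 27.3%). The signs of the 5 log2 fold changes were the same under each scaling tried (TMM, RLE, upper quartile and library size alone).

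**Figure D1:**
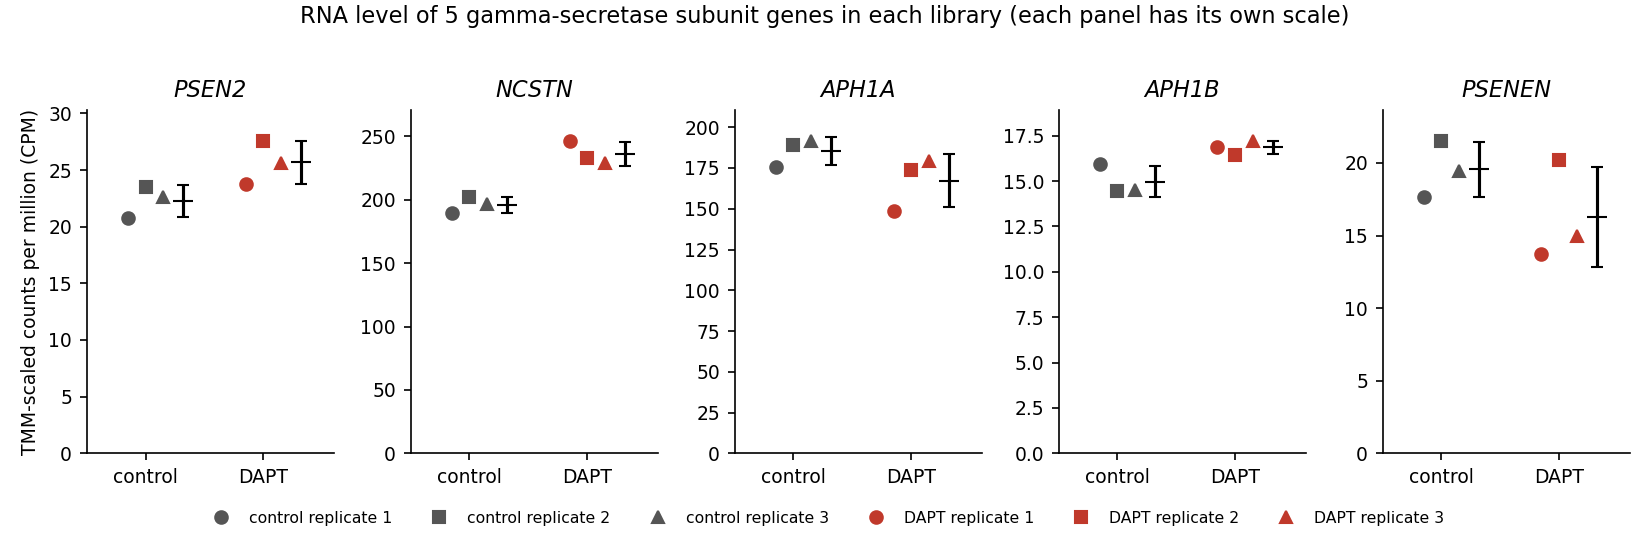
RNA level (TMM-scaled CPM, axis from 0) of the 5 subunit genes in each of the 3 control and 3 DAPT libraries, with the mean and SD of each group beside the points. The *NCSTN* values with DAPT (229 to 246 CPM) lie above all control values (189.8 to 202 CPM), while the groups of *APH1A* and *PSENEN* overlap.

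Nicastrin is the largest subunit by its long outer domain and takes part in the access of substrates to the protease. *NCSTN* (ENSG00000162736, GRCh38 chromosome 1, 160343316 to 160358952, plus strand, 4131 exonic bases) had 3047, 2796 and 2370 reads in the control libraries and 3794, 3191 and 2975 with DAPT. Scaled, these were 189.8, 202 and 196 CPM against 246, 233 and 229 CPM. Every DAPT library lay above every control library, and DAPT replicate 1 was the highest. The mean rose from 196 ± 6.09 to 236 ± 9.26 CPM (SD, n = 3 each). On the log2 scale the fold change was 0.27 (95% interval 0.17 to 0.37, adjusted p = 2.25e-04, edgeR quasi-likelihood test with Benjamini-Hochberg adjustment over all tested genes). As a fold, the interval ran from 1.12 to 1.29. Without control replicate 1 the log2 fold change was 0.25 (adjusted p = 1.86e-04 in edgeR), and over the 6 fits that left out a library it stayed between 0.24 and 0.29 with an adjusted p of at most 0.00176. The change was not large for these libraries, since 33.2% of all tested genes had a larger absolute log2 fold change.

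The start of *NCSTN* lies 84 bases from that of *COPA*, a coat protein gene of vesicles that travel from the Golgi to the endoplasmic reticulum, which is read in the opposite direction. The exons of *COPA* cover 2.06% of the exonic bases of *NCSTN* on the other strand. *COPA* was at 288, 279.6 and 277 CPM in the control libraries and at 319.8, 306 and 309 CPM with DAPT. Both neighbours were thus higher with DAPT without overlap of the groups, and the difference for *COPA* was 0.15 on the log2 scale (adjusted p = 0.0198, edgeR quasi-likelihood test). The groups of *NCSTN* and of 2 other members (*PSEN2* and *APH1B*) did not overlap, a state found in 46.3% of all tested genes.

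Promoter windows from RefSeq (GRCh38.p14, 250 bases before to 50 bases after the annotated start, 5′ to 3′ on the gene's strand) are printed for *NCSTN*, *APH1A* and *PSENEN*. The log2 fold change of *APH1A* had the opposite sign to that of *NCSTN* but was not called, and *PSENEN* holds a match to TGGGAA, a short core described next. Capitals mark matches on either strand to TGGGAA, the core bound by the Notch partner CSL, or to CCGGAA, a core bound by ETS factors.
NCSTN: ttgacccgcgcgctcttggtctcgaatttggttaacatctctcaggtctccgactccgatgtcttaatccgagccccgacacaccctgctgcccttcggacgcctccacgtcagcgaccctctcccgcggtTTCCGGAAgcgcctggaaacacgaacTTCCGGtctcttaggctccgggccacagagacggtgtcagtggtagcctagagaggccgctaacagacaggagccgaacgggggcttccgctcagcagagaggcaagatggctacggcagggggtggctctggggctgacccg
APH1A: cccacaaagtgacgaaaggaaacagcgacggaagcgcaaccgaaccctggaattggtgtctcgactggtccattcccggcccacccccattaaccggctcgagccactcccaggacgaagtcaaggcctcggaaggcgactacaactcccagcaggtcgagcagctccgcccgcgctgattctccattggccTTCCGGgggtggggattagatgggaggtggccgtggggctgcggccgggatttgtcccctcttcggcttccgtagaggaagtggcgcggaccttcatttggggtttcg
PSENEN: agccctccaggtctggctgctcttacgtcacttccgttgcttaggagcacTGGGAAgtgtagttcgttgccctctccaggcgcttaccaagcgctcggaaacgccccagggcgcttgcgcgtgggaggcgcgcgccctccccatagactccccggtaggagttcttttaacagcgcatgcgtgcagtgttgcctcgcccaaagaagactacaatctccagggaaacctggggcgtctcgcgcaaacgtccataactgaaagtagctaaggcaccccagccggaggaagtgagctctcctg
They lie at chr1:160343133-160343432 (plus strand), chr1:150268967-150269266 (minus strand) and chr19:35745401-35745700 (plus strand). *NCSTN* had 3 matches to CCGGAA, which began 119, 117 and 93 bases before the start, and the first pair overlap in a run that reads the same on both strands. *APH1A* had 1 match to CCGGAA and *PSENEN* 1 match to TGGGAA, 58 and 200 bases before the start. The window of *PSEN2* (chr1:226870366-226870665) had 0 matches to either, and *APH1B* was not analysed here. The starts used for these windows are those of RefSeq. They differ from the gene starts of the count tables, which set the gene spans and the distances to neighbours given here. The windows of *APH1A* and *PSEN2* lie wholly inside the gene spans of the count tables. Of 35116 promoter windows of this length, 24.0% held TGGGAA and 17.2% held CCGGAA. These matches describe the letters in the windows, and the ETS core was added after the values were seen.

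APH1 proteins hold the complex together during its assembly. *APH1A* (ENSG00000117362, chromosome 1, 150265399 to 150269580, minus strand, 3473 exonic bases) had 2818, 2618 and 2313 reads in the control libraries and 2290, 2379 and 2331 with DAPT. These were 175.5, 189 and 192 CPM against 149, 174 and 179 CPM. DAPT replicate 1 was the lowest of all libraries, and the groups overlapped through control replicate 1 and DAPT replicate 3. The means were 185 ± 8.655 and 167 ± 16.2 CPM (SD, n = 3 each). The log2 fold change was -0.15 (95% interval -0.28 to -0.02 before adjustment, adjusted p = 0.0715, edgeR quasi-likelihood test). The value rested on single libraries. It was -0.19 (adjusted p = 0.031 in edgeR) without control replicate 1, -0.20 (adjusted p = 0.0376) without DAPT replicate 3 and -0.07 (adjusted p = 0.355) without DAPT replicate 1. *C1orf54* overlaps 14.1% of the exonic bases of *APH1A* on the other strand and had between 2 and 10 reads per library, and reads were counted by strand.

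*APH1B* (ENSG00000138613, chromosome 15, 63276018 to 63309126, plus strand, 5443 exonic bases), the less abundant paralog, had 256, 200 and 175 reads in the control libraries and 260, 225 and 224 with DAPT. These were 15.9, 14.4 and 14.5 CPM against 16.9, 16.45 and 17.2 CPM. The groups did not overlap, with control replicate 1 nearest to the DAPT values. The means were 14.96 ± 0.851 and 16.85 ± 0.380 CPM (SD, n = 3 each). The log2 fold change of 0.17 did not pass the test (95% interval -0.02 to 0.36, adjusted p = 0.16, edgeR quasi-likelihood test), and was 0.22 (adjusted p = 0.0842) without control replicate 1. As a share of *APH1A* and *APH1B* together, per length, *APH1B* made up 5.48%, 4.65% and 4.605% in the control libraries and 6.755%, 5.69% and 5.78% with DAPT. Every DAPT share was above every control share, by 1.16 percentage points on average, which gave p = 0.1 in a two-sided exact permutation test, the smallest p that 3 against 3 libraries allow. Without control replicate 1 the difference was 1.45 percentage points, and without DAPT replicate 1 it was 0.824. This share does not depend on how libraries are scaled, but it does depend on the length used. The difference was 0.7925 percentage points with the length of the canonical transcript, an alternative chosen after seeing the data. For read counts without division by length it was 1.715 percentage points.

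Presenilins carry the catalytic aspartates of the protease. *PSEN2* (ENSG00000143801, chromosome 1, 226870184 to 226896105, plus strand, 3699 exonic bases) had 333, 325 and 273 reads in the control libraries and 366, 377 and 334 with DAPT. These were 20.7, 23.5 and 22.6 CPM against 23.8, 27.6 and 25.7 CPM. The groups did not overlap, although control replicate 2 and DAPT replicate 1 nearly touched. The means were 22.3 ± 1.40 and 25.7 ± 1.90 CPM (SD, n = 3 each). The log2 fold change was 0.21 (95% interval 0.04 to 0.38 before adjustment, adjusted p = 0.056, edgeR quasi-likelihood test). It was 0.15 (adjusted p = 0.176 in edgeR) without control replicate 1 and 0.26 (adjusted p = 0.0279) without DAPT replicate 1, so the call turned on which library was left out.

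PEN-2 is the smallest subunit. *PSENEN* (ENSG00000205155, chromosome 19, 35745600 to 35747519, plus strand, 1359 exonic bases) had 284, 298 and 235 reads in the control libraries and 211, 276 and 195 with DAPT. These were 17.7, 21.5 and 19.5 CPM against 13.7, 20.2 and 14.98 CPM. DAPT replicates 1 and 3 were below all controls, and DAPT replicate 2 lay within them. The means were 19.6 ± 1.92 and 16.3 ± 3.43 CPM (SD, n = 3 each). The log2 fold change of -0.26 had the widest interval of the 5 genes (-0.53 to 0.0006, adjusted p = 0.113, edgeR quasi-likelihood test). It was -0.34 (adjusted p = 0.0622 in edgeR) without control replicate 1, -0.15 (adjusted p = 0.394) without DAPT replicate 1 and -0.45 (adjusted p = 0.00617) without DAPT replicate 2. A gene without a symbol, ENSG00000188223, covers 21.0% of its exonic bases on the same strand and held 0 reads in all libraries. Reads in these shared bases were not counted for either gene. Another, ENSG00000267439, covers 31.3% of them on the other strand and had at most 3 reads per library. *U2AF1L4*, whose start on the other strand is 155 bases away, had 21 to 43 reads per library and did not pass the test (log2 fold change 0.18, adjusted p = 0.605 in edgeR).

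The fitted errors of these genes were larger than counting alone gives. From the number of reads alone, the standard error of the log2 fold change would be 0.02 for *NCSTN* and *APH1A*, against fitted standard errors of 0.05 and 0.06. For *PSENEN* it would be 0.07 against a fitted 0.12. For the 2 other low genes the values were closer, 0.06 against 0.08 for *PSEN2* and 0.08 against 0.09 for *APH1B*. The upper bounds of the 95% intervals were a fold of 1.30 for *PSEN2*, 1.29 for *NCSTN* and 1.28 for *APH1B*, and the lowest lower bound was a fold of 0.693 for *PSENEN*.

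**Figure D2:**
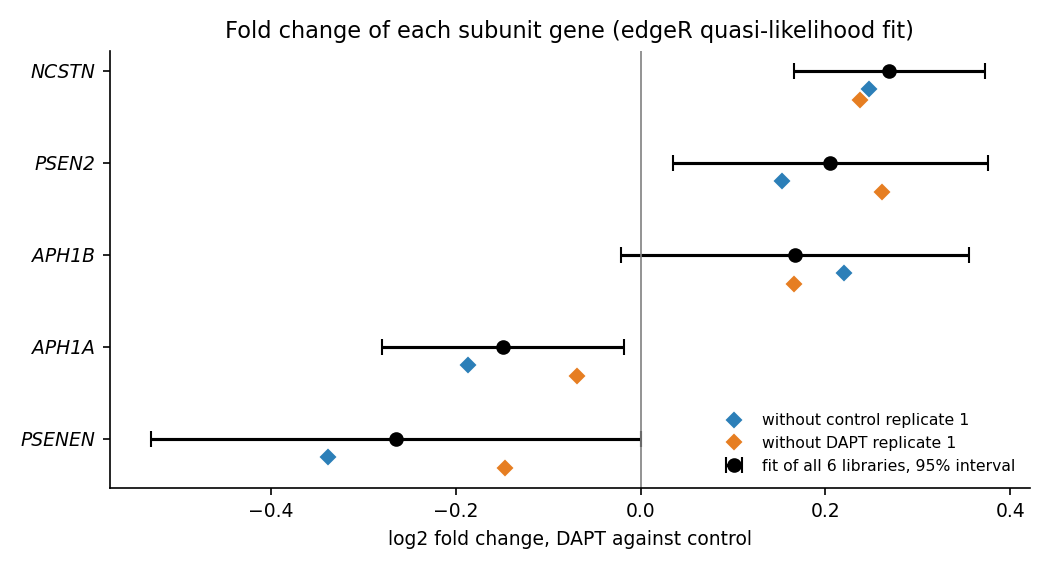
Log2 fold change of each subunit gene, DAPT against control, in the fit of all 6 libraries (black points, bars are 95% intervals before adjustment), without control replicate 1 (blue) and without DAPT replicate 1 (orange). *NCSTN* stays between 0.24 and 0.27 in these fits, while *APH1A* moves from -0.15 to -0.07 without DAPT replicate 1.

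Levels of different genes were compared as RPKM (CPM divided by the length of the annotated exons in kilobases). In the control libraries *APH1A* (53.4 ± 2.49 RPKM, SD, n = 3) was above *NCSTN* (47.4 ± 1.47), followed by *PSENEN* (14.4 ± 1.41), *PSEN2* (6.02 ± 0.378) and *APH1B* (2.75 ± 0.156). No neighbours in this order overlapped. Without control replicate 1 the order was the same, with control means of 54.8, 48.2, 15.1, 6.23 and 2.66 RPKM. With DAPT, *NCSTN* (57.2 ± 2.24 RPKM, SD, n = 3) was above *APH1A* (48.2 ± 4.68), and the lower 3 kept their order with 11.99 ± 2.52 for *PSENEN*, 6.94 ± 0.513 for *PSEN2* and 3.10 ± 0.0698 for *APH1B*. The order of the first pair depended on the length used. With the length of the canonical transcript of each gene, *APH1A* remained above *NCSTN* in both groups, and with DAPT their ranges overlapped (86.0 to 103.5 against 81.0 to 87.3 RPKM). Averaged over the control libraries, the level of *APH1A* was 19.5 times that of *APH1B* by exonic length and 29.75 times by canonical length.

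**Figure D3:**
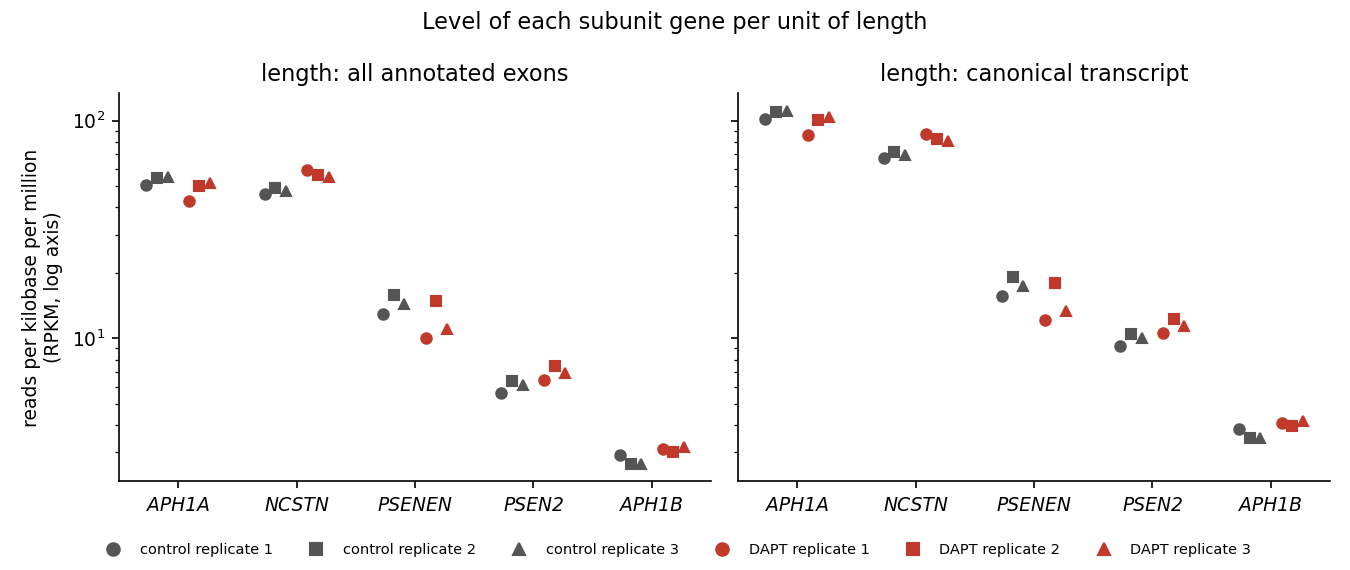
RPKM (log axis) of the subunit genes in each library, with length taken as all annotated exons (left) or the canonical transcript (right). *APH1A* and *NCSTN* lie above *PSENEN*, *PSEN2* and *APH1B* in every library under both lengths.

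The balance between subunits was described by ratios within each library, which no scaling of libraries can change. The log2 ratio of *NCSTN* to *APH1A* per length was -0.14, -0.16 and -0.22 in the control libraries and 0.48, 0.17 and 0.10 with DAPT, a mean difference of 0.42. That of *NCSTN* to *PSENEN* differed by 0.55, that of *PSEN2* to *PSENEN* by 0.48 and that of *PSEN2* to *APH1A* by 0.36, each without overlap of the groups. The ratio of *APH1A* to *APH1B* was lower with DAPT, by 0.32 on average, also without overlap. The groups did not overlap in these 5 of the 10 pairs, and no test was made on them. Over all pairs of tested genes with a read in every library, 43.5% did not overlap. Without control replicate 1, the mean differences of these 5 ratios were 0.44, 0.59, 0.50, 0.34 and -0.41 in the order given. *PSEN2*, *NCSTN* and *APH1B* kept their ratios to each other within a mean difference of 0.10. DAPT replicate 1 was the farthest from the controls in the ratios of *NCSTN* to *APH1A* and to *PSENEN*.

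**Figure D4:**
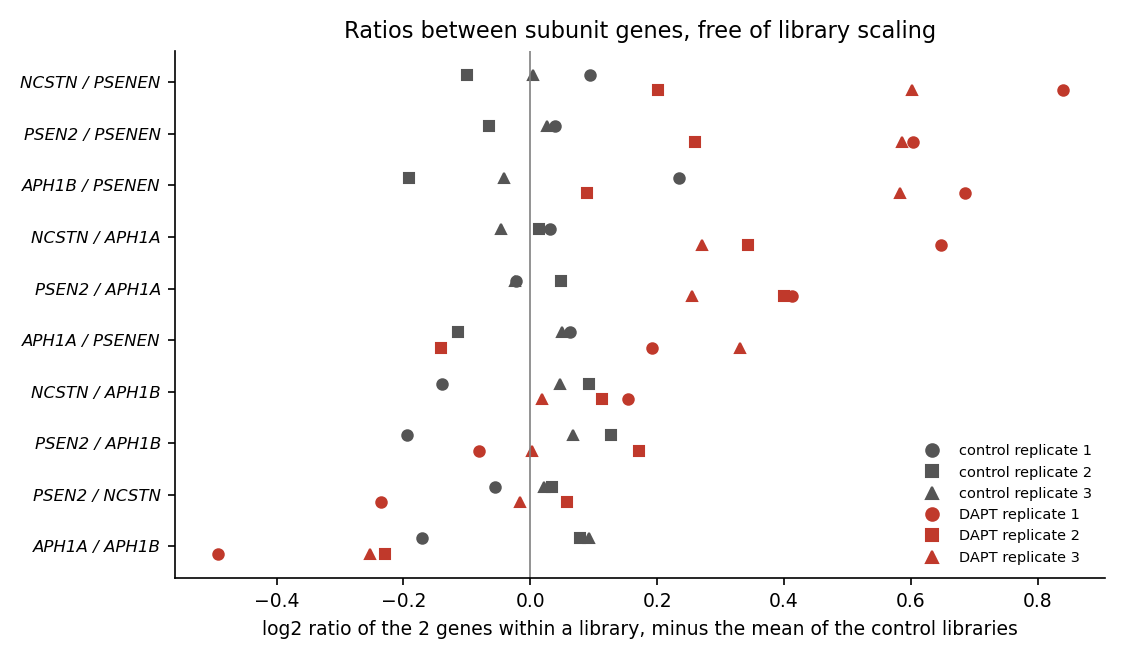
Log2 ratio of each of the 10 pairs of subunit genes within a library, minus the mean of the control libraries, for 3 control (grey) and 3 DAPT (red) libraries. The ratios of *NCSTN* and of *PSEN2* to *APH1A* or *PSENEN* are higher in every DAPT library, and those among *PSEN2*, *NCSTN* and *APH1B* overlap.

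Genes around the complex were read from lists written from general knowledge. Of 10 genes for its assembly and regulation, all tested, 1 was higher, 2 were lower and 7 were not called by the edgeR test, where 35.2% of all tested genes were called. With library size alone as the scale, 5 were higher and 1 was lower, where 37.3% of all tested genes were called and 23.0% were higher. The median log2 fold change was 0.08 against 0.01 for all tested genes. *TMED10*, a cargo receptor of the early secretory pathway that binds γ-secretase, rose from 382 ± 18.7 to 439.9 ± 7.44 CPM (SD, n = 3 each, adjusted p = 0.00242 in edgeR). *HIF1A*, the hypoxia-inducible transcription factor subunit, fell from 1004 ± 21.8 to 837 ± 47.6 CPM (SD, n = 3 each, adjusted p = 3.03e-04 in edgeR). *ARRB2*, an arrestin, fell from 46.7 ± 3.89 to 39.9 ± 1.34 CPM (SD, n = 3 each, adjusted p = 0.0213 in edgeR). *RER1*, which controls the retention of unassembled subunits, had a log2 fold change of 0.10 (adjusted p = 0.169 in edgeR) and was named after its value was seen.

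Of 12 genes for related intramembrane proteases and the nicastrin relative nicalin, 10 were tested, of which 4 were higher, 1 was lower and 5 were not called (median log2 fold change 0.06). The same test called 17.2% of all tested genes higher and 18.0% lower. *SPPL2A*, an aspartyl protease of the presenilin family that resides in lysosomes and late endosomes, had the largest change. It was at 107.9, 96.6 and 107 CPM in the control libraries and at 144, 135 and 139 CPM with DAPT, which on the log2 scale is a fold change of 0.42 (adjusted p = 3.05e-06, edgeR quasi-likelihood test). The rhomboid protease genes *RHBDD1* (log2 fold change 0.36, adjusted p = 0.00581) and *RHBDL1* (0.36, adjusted p = 0.0204) were also higher in the edgeR test, as was *MBTPS2*, which encodes the site-2 protease (0.21, adjusted p = 0.0275, named after its value was seen). *PARL*, a mitochondrial rhomboid, fell from 8.64 ± 0.957 to 6.68 ± 0.929 CPM (SD, n = 3 each, adjusted p = 0.0321 in edgeR). DESeq2 called 2 of these genes higher and 0 lower, and called 26.5% of all its tested genes in either direction.

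Sheddases cut the outer part of a substrate before γ-secretase acts. Of 5 such genes, all tested, 2 were higher and 0 were lower in the edgeR test (median log2 fold change 0.05). The shares over all tested genes were 17.2% higher and 18.0% lower. *ADAM10*, the main sheddase of Notch receptors, went from 456 ± 13.1 to 497 ± 12.1 CPM (SD, n = 3 each, adjusted p = 0.0416 in edgeR), and *ADAM9* from 273 ± 13.1 to 300.3 ± 10.97 CPM (SD, n = 3 each, adjusted p = 0.0381 in edgeR). Both adjusted p-values lay near the threshold, and edgeR's likelihood ratio test called 0 of the 5 (33.7% of all tested genes), with 1 called by DESeq2 (26.5%).

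Of 31 genes for γ-secretase substrates, 28 were tested, of which 6 were higher, 8 lower and 14 not called by the edgeR test (median log2 fold change 0.06). Among all tested genes, 17.2% were higher and 18.0% were lower. The 4 largest changes were all decreases. *NOTCH3*, a Notch receptor that is also a Notch target, fell from 92.1 ± 7.68 to 53.4 ± 3.24 CPM (SD, n = 3 each, adjusted p = 6.68e-09 in edgeR). *NRG1*, a ligand of ERBB receptors, had a log2 fold change of -0.68, *EFNB1*, an ephrin, of -0.64 and *NECTIN1*, an adhesion receptor, of -0.52, each with an adjusted p of at most 6.67e-06 in edgeR. The 6 that rose had log2 fold changes between 0.16 and 0.43. With library size alone as the scale, 11 substrates were called higher in place of 6, where 23.0% of all tested genes were called higher.

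**Figure D5:**
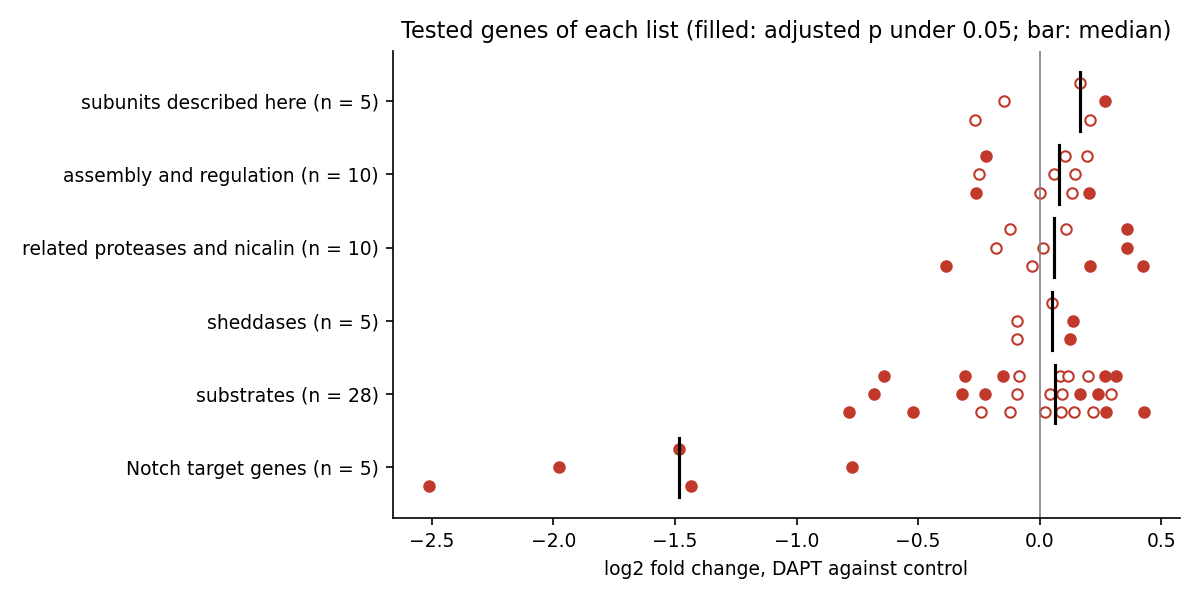
Log2 fold change, DAPT against control, of the tested genes of each list, filled where the adjusted p was under 0.05 (edgeR quasi-likelihood test), with the list's median as a bar. The 5 subunit genes lie between -0.26 and 0.27, while the 5 tested Notch target genes lie between -2.51 and -0.77.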

How the data were processed

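Whole-number read counts per gene were analysed for 6 libraries of HSC-4 cells, 3 control and 3 DAPT. The authors prepared directional libraries, read them from a single end, cleaned the reads with Trim Galore and aligned them by HISAT2 to the GRCh38 genome. Per the file headers, the deposited counts are unnormalized featureCounts 1.6.3 counts over exons on 1 strand (Ensembl annotation 96). The submitters' processing notes also list HTSeq and DESeq2. Reads that matched several places or several genes were not counted. Of 58884 gene identifiers, 58472 were matched to a symbol.

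The main test was edgeR 4.0.16 (R 4.3.3): its low-count filter by group (minimum count 10), TMM factors, a robust quasi-likelihood fit without covariates and Benjamini-Hochberg adjustment over 15001 genes, with calls at an adjusted p under 0.05. The study names edgeR without naming the test. Standard errors and 95% intervals were derived from the test statistic. The floor of 3 counts corresponds to 0.184 to 0.244 CPM, and it covers counting error only. RPKM used the exonic length in the count tables or, as an alternative chosen after seeing the data, the canonical transcript of GENCODE release 44. The edgeR, limma-voom and DESeq2 fits were tested on simulated counts with changes larger than those of the subunits. The simulation did not include changes as small as theirs.

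The genes named are the 5 subunits, *HES1*, *HEY1* and *NRARP*, up to 4 called genes with the largest change per list, the 2 genes most like each subunit, and neighbours that overlap a subunit or start within 1000 bases on the other strand. Members and lists were chosen with earlier results of these data known. Other settings tried were DESeq2 1.42.0, limma-voom (limma 3.58.1), the likelihood ratio test of edgeR, RLE, upper quartile and library size scaling, no filter, at least 10 counts in every library, an adjusted p under 0.01, each library left out and a replicate block.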

Additional observations from a re-analysis of the deposited data

How the results depend on the processing

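The rise of *NCSTN* passed the threshold under all 15 alternatives, with log2 fold changes from 0.24 to 0.32, and the sign of the 5 log2 fold changes was unchanged in all 75 refits. No call was made for *APH1B* in any of them. The calls of the other 3 subunits depended on the setting. *PSEN2* passed with library size alone (0.25). *APH1A* (-0.15) and *PSENEN* (-0.26) passed without a low-count filter. Under a replicate block on the library number, *PSEN2* (0.20), *APH1A* (-0.15) and *PSENEN* (-0.27) all passed, so that 2 members were called higher and 2 lower, 4 of 5 in all against 35.3% of all tested genes. The labels do not say whether same-numbered libraries were pairs. Over the tested genes, the correlations of their deviations from the group means were 0.0173, 0.0252 and 0.00382. These values do not settle whether the libraries were paired. The block left the counts over all genes within 1.5 times (2558 higher, 2737 lower) and gave p = 0.25 for the share of *APH1B* in a two-sided exact sign-flip permutation test, the smallest that 3 pairs allow. The cause of these changes was not tested.

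Members called higher were 2 with library size alone (23.0% of all tested genes higher), and members called lower were 2 without a filter (9.36% lower). Leaving out each library gave log2 fold changes from 0.15 to 0.26 for *PSEN2*, -0.20 to -0.0691 for *APH1A* and -0.45 to -0.15 for *PSENEN*, with 1 to 2 members called higher and 0 to 1 lower. These fits called between 27.2% and 37.1% of all tested genes in either direction. An adjusted p under 0.01 left 1516 genes higher and 1822 lower. In the list for assembly and regulation, 5 genes were higher and 1 lower with library size alone, 2 were higher with the replicate block, and 1 to 3 were higher and 1 to 3 lower with a library left out. Among related proteases, DESeq2 called 2 higher and 0 lower, and library size alone called 5 higher and 0 lower. With a library left out, 2 to 4 were higher and 0 to 2 lower. Of the sheddases, 1 was higher with DESeq2, RLE, upper quartile or no filter, 0 with the likelihood ratio test, and 0 to 2 with a library left out. Library size alone called 11 substrates higher. Beside these list counts, the share of all tested genes called in either direction was 37.3% with library size alone and 35.3% with the replicate block. It was 26.5% with DESeq2, 33.7% with the likelihood ratio test, 35.4% with RLE, 35.3% with upper quartile and 17.7% with no filter.

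With canonical lengths, an alternative chosen after seeing the data, the control and DAPT means were 9.90 and 11.4 RPKM for *PSEN2*, 69.45 and 83.7 for *NCSTN*, 107 and 96.7 for *APH1A*, 3.615 and 4.07 for *APH1B*, and 17.4 RPKM for *PSENEN* in controls. Without the bases shared on the same strand, also chosen after seeing the data, *PSENEN* was at 18.2 and 15.2 RPKM. The depth was 175 to 377 reads per library for *PSEN2*, *APH1B* and *PSENEN*, at which counting alone gives a standard error of 0.06 to 0.08 on the log2 scale.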

Other observations

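The genes whose profile over the 6 libraries was most like that of each subunit were found by the root mean square difference of log2 CPM, each gene centred on its own mean. For *NCSTN* they were *KMT2D*, a histone methyltransferase gene (difference 0.02 on the log2 scale), and *FAIM*, an inhibitor of apoptosis (0.02), against a median of 0.20 over all tested genes. For *PSEN2* they were *STYXL1* and *EMC10*, a subunit of the complex that inserts membrane proteins into the endoplasmic reticulum (0.02 each). For *APH1A* they were *TSEN54*, a subunit of the tRNA splicing endonuclease, and *CYC1*, a subunit of respiratory complex III (0.02 each). For *APH1B* they were *MAP3K3* and *DYNC1LI2*, a light intermediate chain of dynein (0.01 each), and for *PSENEN* *FNDC4* (0.05) and *AGTRAP* (0.06). Nothing is read from these likenesses over 6 libraries.

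*HEYL*, a further Notch target gene, was at 20, 27 and 17 reads in the control libraries and at 9, 2 and 0 with DAPT (adjusted p = 0.00104, edgeR quasi-likelihood test). *HES4*, another, fell from 19.04 ± 2.325 to 6.80 ± 0.956 CPM (SD, n = 3 each, adjusted p = 4.01e-09 in edgeR). The libraries control replicate 1 and DAPT replicate 1 differed most from the other libraries of their groups. The chi-square of counts per gene against sampling noise was 5.34 and 5.25 for control replicate 1 with its partners and 4.07 and 3.89 for DAPT replicate 1, against 1.575 and 1.80 between the remaining libraries of each group.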
